A study of Mus musculus with 670 samples.

Results

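The cells described here are cartilage cells of 2-month mice that either did or did not hold RNA of Matn3, the gene of matrilin-3. They were chosen by measured values: a cell had to hold Cnmd, the chondromodulin gene, at 10 counts per 1000000 reads (CPM) or more, and the division was selected on Matn3, at 10 CPM or more in the first arm and at 0 reads in the second. Of 670 wells in the series, 3 plates were of 2 months and gave 15, 70 and 69 usable cells on plates 1, 3 and 4, of which 7, 50 and 49 were Cnmd-positive. The arms took all of these but 1: 71 were Matn3-positive (7, 31 and 33 on the 3 plates), 34 had 0 Matn3 reads (0, 18 and 16), and 1 cell of plate 3 with a single Matn3 read was in neither arm.

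The series is about ageing of skeletal stem cells, which give rise to bone, cartilage and stroma. Digested long bones of untreated male mice were stained with antibodies, sorted by flow cytometry without culture, and single cells were read by SmartSeq2, which covers transcripts over their full length. The groups used are the labelled age of 2 months, on plates 1, 3 and 4, and for comparison postnatal day 3, on plate 9, and the labels state no strain or genotype. They name no animal either; codes in the titles that could mark animals are not explained and were not read as such. Each age was therefore treated as 1 sample, no test was made, no p-value is given, and every difference below describes these cells only. The plates of 2 months carry batch labels 4, 5 and 1, and plate 9 carries label 3, so plate and batch cannot be told apart. A difference between the ages cannot be told apart from one of plate or batch. The labels' protocol names skeletal stem cell populations as the sorted cells and does not describe the gate.

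Matrilin-3 is an adaptor of the cartilage matrix: it links the thin fibrils built of collagens II, IX and XI to proteoglycans and to cartilage oligomeric matrix protein, and mutations in its gene cause epiphyseal dysplasia in people. Chondromodulin is a cartilage glycoprotein that keeps vessels out of the tissue. Lubricin, the product of Prg4, coats the joint surface and is made by the superficial cells of articular cartilage, whereas matrilin-3 is known from deeper and growth cartilage.

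Matn3 lies on chromosome 12 from 8947929 to 8972028 on the plus strand (GRCm38, GENCODE), Cnmd on chromosome 14 from 79637690 to 79662170 on the minus strand, and Prg4 on chromosome 1 from 150449412 to 150466165 on the minus strand. Both choosing genes are given as description. Matn3-positive cells of plate 3 held Matn3 from 23.9 to 23627 CPM with a median of 3452 (31 cells), those of plate 4 from 31.6 to 19329 CPM with a median of 2918 (33 cells), and those of plate 1 from 1969.8 to 8287 CPM with a median of 6366 (7 cells). The lowest positive cells stood at 23.9, 30.02, 31.6, 44.96, 91.3 and 104.4 CPM, and the cell in neither arm at 5.78 CPM. In a cell of the 0-read arm, 3 reads would have been 1.70 to 44.4 CPM, which reaches above the lowest positive cells. In shallow cells, 0 reads and a low positive level therefore cannot be told apart. Cnmd, which both arms had to hold, had medians of 6140.4 and 6150.4 CPM in positive cells of plates 3 and 4 against 1624 and 1740.5 CPM in 0-read cells. The lowest Cnmd levels inside the limit were 11.5, 14.8, 28.3 and 39.2 CPM, and the highest outside it were 8.22, 6.10 and 3.00 CPM. The cell at 8.22 CPM of Cnmd held 4055 CPM of Matn3.

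The 0-read cells came from both well-filled plates at similar shares. On plate 3, 18 of 50 Cnmd-positive cells had no Matn3 read (36%, exact 95% binomial interval 22.9% to 50.8%), and on plate 4, 16 of 49 (32.7%, 19.9% to 47.5%). Plate 1 gave 0 of 7, which allows a share of up to 42.9% (3 cells). Over the 3 plates the share was 32.1% (23.3% to 41.8%), and it was 33.02% after each cell had been drawn down to 50000 reads, so 1 cell lost its Matn3 reads at that depth. These intervals cover counting error only. Read totals were alike, with medians of 911764 and 644563 reads in positive cells of plates 3 and 4 and 771188 and 724332 in 0-read cells. Positive cells held more genes: medians of 2160 and 2069 against 1530 and 1780, and at 50000 reads 1631 and 1511 against 1178 and 1269. Among the 38 Cnmd-positive cells with at least 2000 genes and 200000 reads, 5 had no Matn3 read (13.2%). The part of this gap in genes per cell in the results below was not tested beyond the values given for cells of 1300 to 2300 genes.

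**Figure D1:**
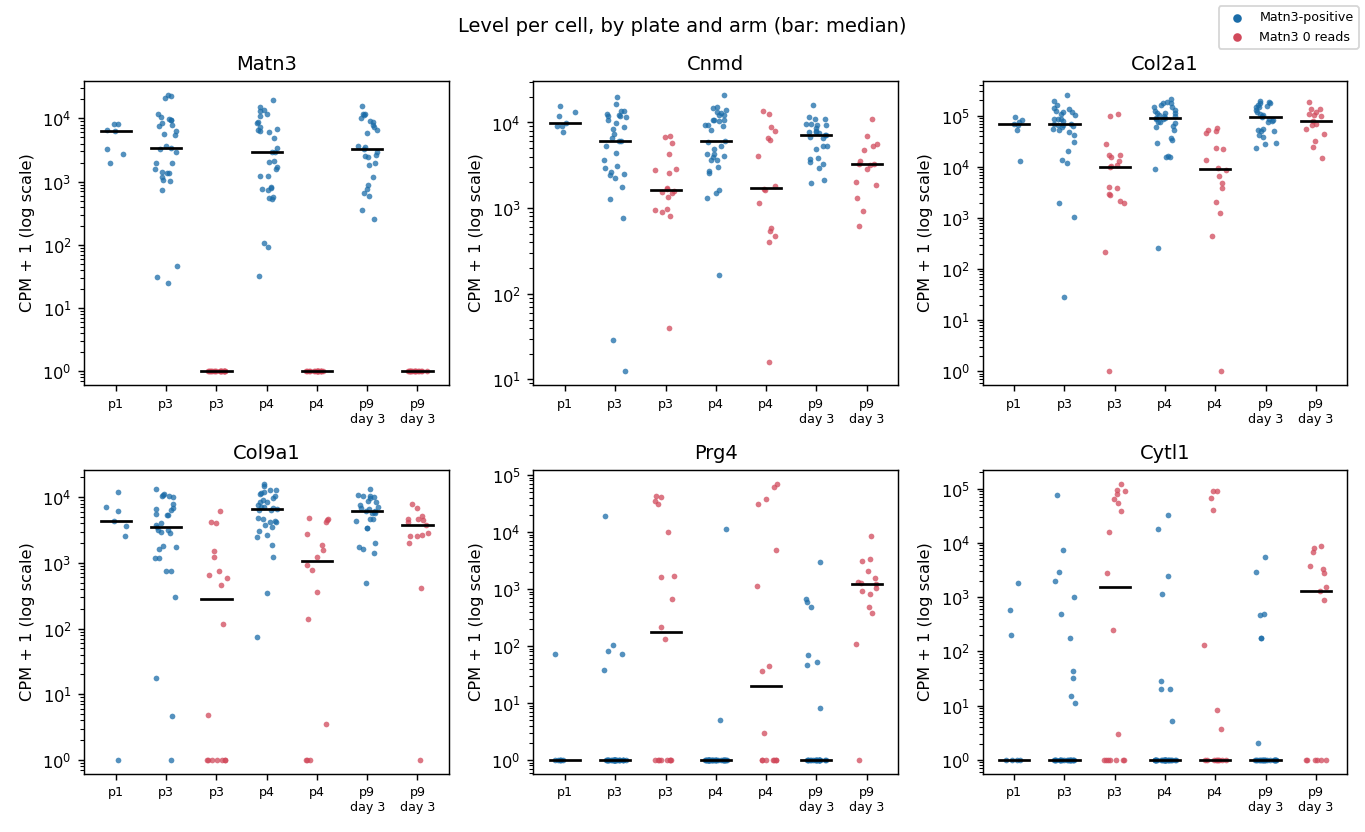
Level of 6 genes in each cell as CPM + 1 on a log axis, by plate (p1, p3 and p4 are 2 months, p9 is postnatal day 3) and arm, where each point is 1 cell and each bar is the median. Matn3 and Cnmd chose the cells. Col2a1 and Col9a1 sit lower in the 0-read cells of plates 3 and 4, and Prg4 and Cytl1 reach their highest levels there.

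Most cells of both arms held reads of other cartilage genes. Col2a1, the main fibril collagen of cartilage, had reads in 64 of 64 positive cells and 32 of 34 0-read cells of plates 3 and 4, Comp in 64 and 33, Acan in 64 and 30, and Sox9 in 62 and 32. In 2 of 64 positive and 7 of 34 0-read cells, however, the bone gene Ibsp had more reads than Col2a1, and its part in the results was not tested beyond the values given below without cells that held Ibsp. Markers of blood, vessels and vessel walls were low: of 12 blood and immune genes 5 had no read in positive cells and 3 none in 0-read cells, and their summed level was 13.1 and 1.71 CPM against 4.92 and 88.2 CPM on plates 3 and 4. The 88.2 CPM came almost wholly from Cd74 in 1 cell. A read of any of these 12 genes was found in 10 of 64 and 8 of 34 cells, and whether such reads were stray RNA was not tested. All 6 endothelial genes, Pecam1 and Cdh5 among them, were at 0 in the 0-read arm. They summed to 9.74 and 6.18 CPM in positive cells, with a read in 6 of 64. The 5 mural genes summed to 75.05 and 0.93 CPM in positive and 32.4 and 56.7 CPM in 0-read cells, with a read in 6 and 5 cells. No 2 member cells shared an index pair or held identical values.

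Matn3-positive cells held more RNA of the collagens of cartilage fibrils, and 0-read cells more RNA of joint surface genes. To compare levels, reads were summed per plate and arm and divided by that sum's total, and the mean of plates 3 and 4 was taken, since plate 1 had no 0-read cell. A gene was called when the higher arm had at least 10 CPM with reads in at least 25% of its cells, the arms differed at least 2-fold with 1 CPM added to each, and both plates went the same way. Of 2578 genes that could be called, 523 were higher in Matn3-positive cells (20.3%) and 10.4% were lower. The median log2 fold of all of them was 0.20, so the values of gene lists below are read beside that shift. In cells of 1300 to 2300 genes, a range chosen after seeing the data, 435 were higher and 407 lower, so the lean toward higher calls, 66.2% of all calls, became 51.7%. It was 52.9% without plate 3.

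Of 25 cartilage matrix genes in the table other than Matn3 and Cnmd, 23 could be called, 10 were higher, 1 was lower, and the median log2 fold was 0.90. All 6 chains of the collagens II, IX and XI were among the 10. Col2a1 stood at 74276 and 92443 CPM in positive cells of plates 3 and 4 and at 18665 and 17938 CPM in 0-read cells, a log2 difference of 2.19. Per cell it ran from 27.2 to 257447 CPM with a median of 67811 in positive cells of plate 3, and from 0 to 109297 CPM with a median of 10131 in 0-read cells of that plate. The ranges overlap, but the median 0-read cell lay below most positive cells. Col9a1, a chain of the collagen that coats the fibril, stood at 4658 and 7496 CPM against 641 and 1525 CPM (log2 difference 2.49), and its partner chains Col9a2 and Col9a3 differed by 2.36 and 2.402. All 3 collagen IX chains were read in 63 of 64 positive cells and in 23 to 26 of 34 0-read cells. Col11a1 and Col11a2, chains of the fibril's core, differed by 1.51 and 1.93. These directions held on each plate, in cells without Ibsp reads and in cells of 1300 to 2300 genes, where Col2a1 differed by 2.47 and 2.49.

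The proteoglycan and small matrix protein genes were less even. Acan, the core protein of aggrecan, stood at 1632 and 2256 CPM against 789 and 664 CPM (log2 difference 1.42). Ucma, a Gla-rich protein named for upper zone growth plate cartilage, stood at 1482 and 1447 CPM against 313 and 203.3 CPM (log2 difference 2.50), with reads in 54 of 64 positive cells and 11 of 34 0-read cells, and in 52 and 11 at 50000 reads. Epyc, the small proteoglycan of epiphyseal cartilage, had reads in 28 and 3 cells and differed by 2.48. Matn4, another matrilin, differed by 1.01 with reads in 23 and 3 cells, and 1 cell gave 75.7% of its reads in the 0-read arm. Genes that the arms held at like levels were Comp, at 11755 and 11199 CPM against 11297 and 10141 CPM, Fmod, which encodes fibromodulin, with a log2 difference of 0.06, Scrg1 with 0.16 and Snorc with 0.26. Chad, the chondroadherin gene, had a log2 difference of -0.77 and was not called. Without cells that held Ibsp, Comp differed by 1.16 and Chad by 0.19. The 1 cartilage list gene that was called lower, Cytl1, is described with the joint surface genes.

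Among the positive cells, some collagen chains and some other genes varied with the level of Matn3, and so did Cnmd, which also chose the cells. Over the 31 cells of plate 3 and the 33 of plate 4, Spearman's correlation of the Matn3 level across cells was 0.71 and 0.48 with Col9a2, 0.75 and 0.51 with Col11a1, and 0.65 and 0.45 with Col9a1. With Cnmd it was 0.70 and 0.58. It was 0.47 and 0.32 with Col11a2, 0.48 and 0.06 with Col9a3, and 0.36 and -0.03 with Col2a1. With Acan it was 0.08 and 0.12, with Chad 0.15 and 0.15, and with Hapln1 0.03 and 0.26. Genes other than collagens reached like values: Pcolce2 0.44 and 0.50, Sox9 0.30 and 0.49, and Comp 0.27 and 0.41. Epyc had 0.43 and 0.26, Matn4 0.26 and 0.35, and Ucma 0.51 and 0.16. These cells share a plate and a library preparation and differ in depth, so the values describe them and carry no test.

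**Figure D2:**
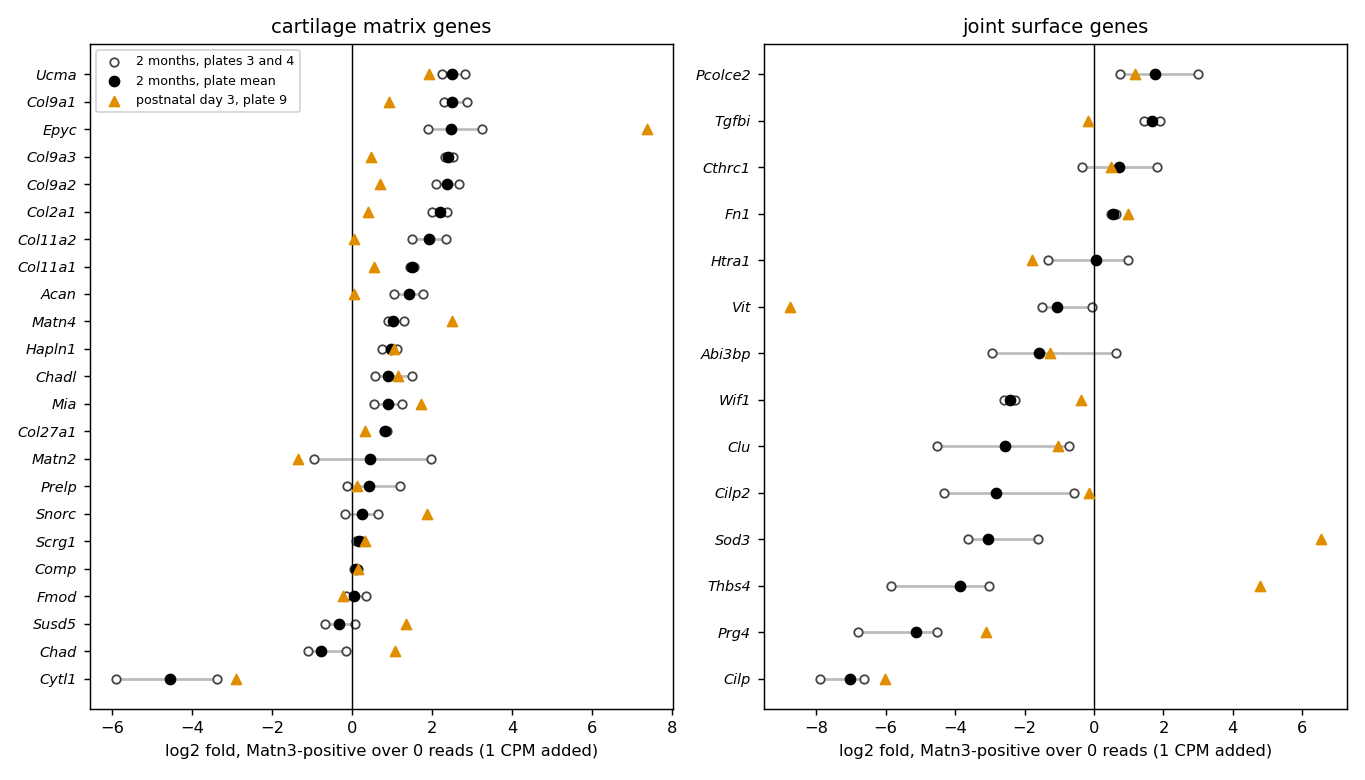
Log2 fold of Matn3-positive over 0-read cells, with 1 CPM added to each level, for the genes that could be called in the cartilage matrix list (left) and the joint surface list (right). Open circles are plates 3 and 4 of 2 months, black dots are the plate mean and orange triangles are plate 9 of postnatal day 3. Collagen chains lie to the right at 2 months and closer to 0 at postnatal day 3, while Prg4, Cilp and Cytl1 lie to the left at both ages; newborn values beyond 6 on either side belong to genes with 0 reads in 1 arm and depend on the added 1 CPM.

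Joint surface genes went the other way. Of 24 measured, 14 could be called, 8 were lower in Matn3-positive cells (Prg4, Cilp, Cilp2, Thbs4, Vit, Clu, Sod3 and Wif1), 2 were higher (Pcolce2 and Tgfbi), and the list's median log2 fold was -2.01 beside 0.20 for all genes. On plates 3 and 4 alone that median was -1.88 and -0.95. Vit, which encodes vitrin, had -1.50 on plate 3 and -0.05 on plate 4, so its call rests on plate 3. Prg4 stood at 82.3 and 509.7 CPM in positive cells and at 9262 and 11650.3 CPM in 0-read cells (log2 difference -5.14). It was read in 7 of 64 positive cells (10.9%, 4.51% to 21.2%) and 19 of 34 0-read cells (55.9%, 37.9% to 72.8%), and in 6 and 19 at 50000 reads. In the 0-read cells Prg4 ran from 0 to 42433 CPM with a median of 171.2 on plate 3 and from 0 to 70499 CPM with a median of 18.5 on plate 4. A level of 1000 CPM or more was found in 13 of 34 0-read cells and 2 of 64 positive cells, and 1 positive cell gave 85.1% of the reads of its arm.

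Cytl1, a small secreted cartilage protein on chromosome 5 from 37735519 to 37739820 (plus strand), followed Prg4. It stood at 734 and 2007 CPM against 43780.1 and 20829 CPM, a log2 difference of -4.56. Reads were found in 19 of 64 positive cells and 18 of 34 0-read cells, and levels of at least 1000 CPM in 8 and 13, so the contrast lay more in the level than in the share of cells with a read. Cilp, the gene of cartilage intermediate layer protein (chromosome 9, 65265180 to 65280605, plus strand), stood at 11.7 and 2.72 CPM against 1261 and 886 CPM (log2 difference -7.03) with reads in 6 and 11 cells. Its relative Cilp2 differed by -2.83, of which plate 3 gave -4.32 and plate 4 -0.58.

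Other secreted proteins of the list were lower in positive cells with more overlap. Thbs4, a thrombospondin of tendon and cartilage, stood at 262.2 and 37.3 CPM against 2133 and 2221 CPM with reads in 10 and 18 cells. Clu, the extracellular chaperone clusterin, stood at 2469 and 627 CPM against 4035 and 14294 CPM, so the plates gave -0.71 and -4.51. Wif1, a secreted inhibitor of Wnt proteins, differed by -2.43 and was read in 29 and 23 cells. Frzb, another secreted Wnt inhibitor, which was listed with growth factor signals, stood at 96.6 and 56.04 CPM against 622 and 733 CPM with reads in 7 and 13 cells. The exceptions were Pcolce2, an enhancer of procollagen processing, with reads in 46 of 64 positive and 6 of 34 0-read cells (log2 difference 1.77), and Tgfbi, a matrix adhesion protein (1.66, reads in 25 and 6 cells). Gdf5, Erg and Tnc, known from forming joints, were read in 3 cells or fewer of each arm.

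The 34 cells without Matn3 were not alike, and Prg4 divided them into 19 and 15, a division chosen after seeing the values and given as description. In the 19 cells with a Prg4 read, Cytl1 was read in 16, Cilp2 in 16, Gas1, which encodes a hedgehog co-receptor, in 15, Cilp in 11 and Frzb in 11. In the 15 without one, Cytl1 was read in 2, Cilp2 in 2, Gas1 in 3, Cilp in 0 (which allows up to 20% of such cells) and Frzb in 2. Thbs4 (13 and 5), Clu (15 and 7) and Wif1 (15 and 8) were closer between them. Both sets held less Col2a1 than positive cells, with medians of 12977 CPM with Prg4 and 4885 CPM without, against 82401 CPM in positive cells. For Col9a1 the medians were 454, 923 and 5094 CPM. Pcolce2 was read in 0 of 19 cells with Prg4, 6 of 15 without and 46 of 64 positive cells. Cells without Prg4 were shallower, with medians of 472825 reads and 1439 genes against 892713 reads and 1758 genes.

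With cells that held Prg4 left out of both arms, the fibril collagens kept their direction, at a log2 difference of 2.80 for Col2a1 and 1.75 for Col9a1. The joint surface median was -0.51, Gas1 differed by -0.52, and Cytl1 turned to 2.81 and Cilp to 3.00, with Cilp at 0 in the 0-read cells left. Thbs4, Clu and Wif1 stayed lower in positive cells, at -5.07, -3.29 and -3.79. For Thbs4, 5 of the 15 0-read cells left held reads, and most of these reads came from 1 cell at 12131 CPM, which held Ibsp at 112162 CPM. Leaving such cells out of the 0-read arm alone gave a joint surface median of -0.41, Cytl1 at 4.58 and Gas1 at 5.25; that choice keeps the 7 positive cells with Prg4, which held 80.7% of the summed Cytl1 level of the positive cells, so it is one-sided by construction.

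**Figure D3:**
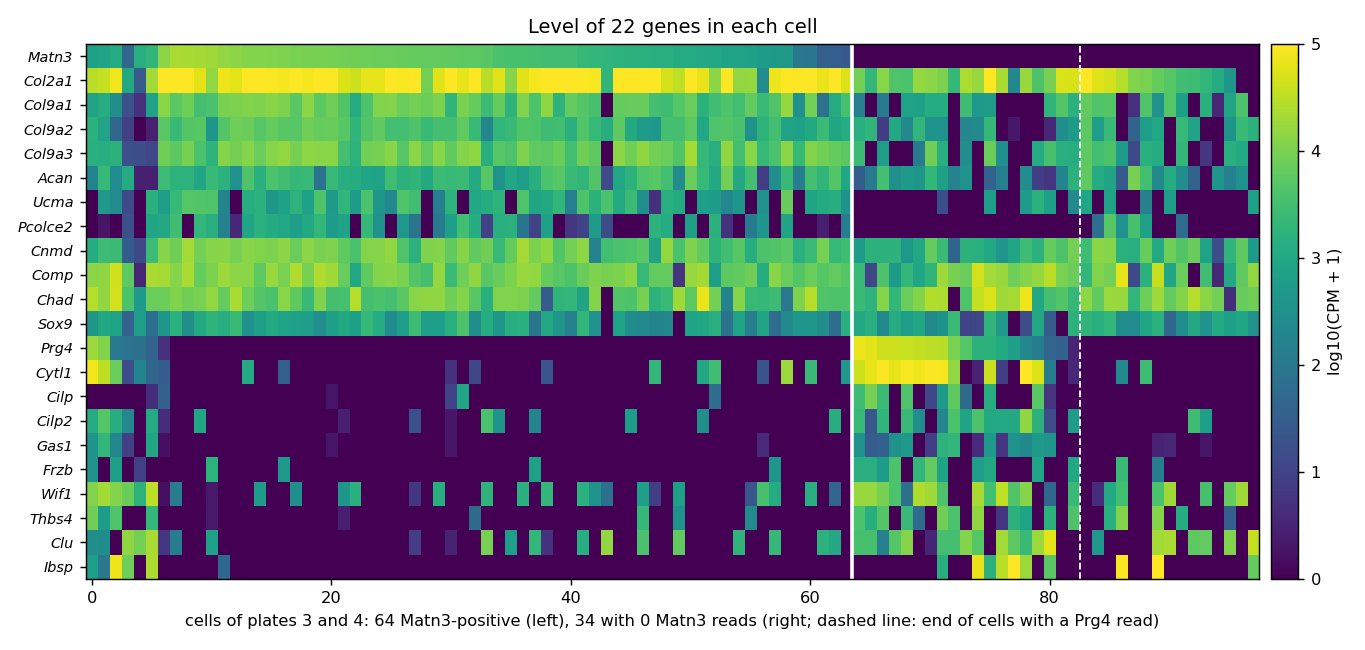
Levels of 22 genes in the 98 cells of plates 3 and 4, 1 column per cell, as log10(CPM + 1) by colour. Columns left of the solid line are the 64 Matn3-positive cells, and those right of it the 34 cells with 0 Matn3 reads, each ordered by Prg4 level and then by Matn3 or Col2a1; the dashed line ends the 19 0-read cells with Prg4. Cytl1, Cilp, Cilp2 and Gas1 are read in a larger share of the columns between both lines than of all positive or the other 0-read columns. The 7 positive cells with Prg4 are at the far left.

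Of the 7 positive cells with a Prg4 read, all 7 held Cytl1 reads, 5 held Ibsp reads, and their median Matn3 was 1204 CPM against 3452 CPM in the other 57. Their median Col2a1 was 30260.3 CPM against 86640.5 CPM. They held 1648 to 3506 genes, with a median of 2718 against 2027, and whether any well held more than 1 cell was not tested.

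**Figure D4:**
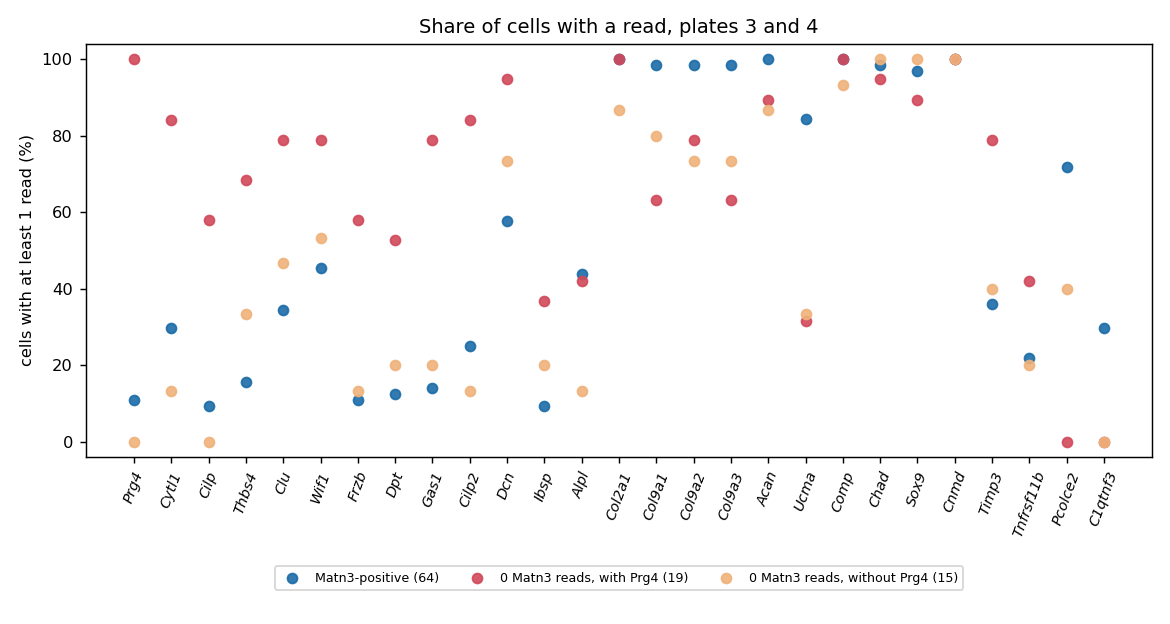
Share of cells of plates 3 and 4 with at least 1 read of each gene, in percent, for 64 Matn3-positive cells, 19 cells without Matn3 but with Prg4, and 15 cells with neither. Prg4 itself set the last division. Cytl1, Cilp, Cilp2, Gas1 and Frzb are highest in the cells with Prg4, whereas Ucma is at 84.4% in positive cells and at 31.6% and 33.3% in both others.

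Transcription factors did not follow the split as a group. Of 16 chondrocyte factors 12 could be called, 2 were higher and 2 lower, with a median log2 fold of 0.05. Sox9, the master regulator of cartilage identity, stood at 631 and 899 CPM against 757 and 812 CPM, and Zbtb20 at 1309 and 1459.8 CPM against 1322 and 1433 CPM. Sox6, a SOX factor that works with Sox9, was higher at 63.7 and 58.9 CPM against 3.86 and 3.85 CPM, with reads in 19 and 6 cells, while its relative Sox5 had a difference of 0.48 and was not called. Runx2 was higher (log2 difference 1.51, reads in 23 and 5 cells), and Runx1 and Trps1 were lower (-1.62 and -1.06).

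The upstream sequences of genes at both ends of the split were read for SOX motifs, since SOX9 with SOX5 or SOX6 acts on cartilage genes. They are the 250 bases before the start of Matn3 and Col9a1, higher together, and of Cytl1 and Cilp, lower together, 5′ to 3′ on the plus strand, from RefSeq for GRCm38.p6; letters of a match would be capitals.
Matn3 (chr12:8947679-8947928): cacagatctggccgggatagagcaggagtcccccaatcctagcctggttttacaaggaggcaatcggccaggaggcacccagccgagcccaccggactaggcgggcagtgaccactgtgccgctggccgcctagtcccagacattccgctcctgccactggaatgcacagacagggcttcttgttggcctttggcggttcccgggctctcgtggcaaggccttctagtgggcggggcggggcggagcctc
Col9a1 (chr1:24177360-24177609): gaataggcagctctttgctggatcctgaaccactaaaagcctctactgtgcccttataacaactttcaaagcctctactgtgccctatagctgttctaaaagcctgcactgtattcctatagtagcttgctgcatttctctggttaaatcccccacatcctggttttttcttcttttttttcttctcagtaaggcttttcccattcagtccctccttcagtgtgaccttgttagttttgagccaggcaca
Cytl1 (chr5:37735269-37735518): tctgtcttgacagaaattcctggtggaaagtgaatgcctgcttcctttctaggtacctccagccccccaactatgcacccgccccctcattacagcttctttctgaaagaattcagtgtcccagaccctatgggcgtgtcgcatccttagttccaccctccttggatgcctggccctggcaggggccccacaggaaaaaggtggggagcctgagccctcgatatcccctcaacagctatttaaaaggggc
Cilp (chr9:65264930-65265179): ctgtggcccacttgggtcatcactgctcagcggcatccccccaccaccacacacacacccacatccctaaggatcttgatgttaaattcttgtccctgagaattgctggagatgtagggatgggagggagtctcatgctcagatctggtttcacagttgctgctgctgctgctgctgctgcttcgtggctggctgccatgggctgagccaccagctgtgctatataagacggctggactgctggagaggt
None of the 4 holds ACAAAG or ACAAT on either strand; the letters of one motif do not lie within the other. Over 27025 mouse promoters, with the first listed start per gene, 16.5% held ACAAAG and 28.3% ACAAT in this window. Among called genes with a promoter entry, ACAAAG was in 13.2% of 386 higher and 9.41% of the lower genes, beside 10.7% of the 1946 genes that could be called. For ACAAT the shares were 16.1%, 19.3% and 17.01%. The shares of called genes lie near those of the genes that could be called, which are below those of all promoters. In the cartilage matrix list ACAAAG was in 0 of 22 promoters and ACAAT in 4. In the joint surface list each motif was in 2 of 12. None of these shares says whether the factors bind elsewhere.

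Of 11 genes of chondroitin synthesis and sulfation, 7 could be called, 3 were higher and 0 lower, at a median log2 fold of 0.59. On plates 3 and 4 alone that median was 0.06 and 1.12, beside 0.27 and 0.18 for all genes. In newborn cells 9 could be called, 3 were higher and 2 lower, at a median of 0.04. Papss2, which makes the sulfate donor, stood at 602 and 1016 CPM against 81.1 and 278.9 CPM, with reads in 48 of 64 and 10 of 34 cells. Slc26a2, the sulfate transporter, differed by 1.34, and Chst11, a chondroitin sulfotransferase, by 1.63, of which plate 3 gave 0.06.

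More growth plate genes were called lower than higher in positive cells, at a median log2 fold of -0.79 (-0.59 and -0.61 on plates 3 and 4). Each lower call rests on 1 plate or on few cells, or turned under another choice of cells, as given below. Of 16 growth plate genes 10 could be called, with 1 higher (Panx3, a channel of maturing chondrocytes, at 257.9 and 991 CPM against 1.59 and 25.3 CPM) and 4 lower (Gas1, Npr2, Alpl and Ibsp). Gas1 had -3.54 on plate 3 and -0.10 on plate 4, so its call rests on plate 3. Npr2, the receptor of C-type natriuretic peptide, differed by -1.64, and by 0.51 without cells of both arms that held Prg4. Ibsp, the bone sialoprotein gene, was read in 6 of 64 and 10 of 34 cells and stood at 2799 and 6.10 CPM against 14578 and 12459 CPM, so a few cells carried it. Of 16 osteoblast genes 10 could be called, with 1 higher and 2 lower, at medians of 0.50 and -1.004 on plates 3 and 4, and 2 of the 16 were at 0 in each arm. Their summed level was 36706 and 32166 CPM in positive cells and 59098 and 49732 CPM in 0-read cells, most of it Sparc. Without the cells that held Ibsp, a choice made after seeing the data, 65 and 24 cells were left over all plates. The 65 include 7 cells of plate 1, which entered no fold. Prg4 then differed by -12.1, Cytl1 by -6.41 and Col2a1 by 2.47. Alpl, called lower at -1.18, turned to 1.08 without those cells. In all cells of plates 3 and 4, Alpl was read in 28 of 64 positive cells. Among 0-read cells it was read in 8 of 19 with Prg4 and 2 of 15 without. Of the 7 positive cells with Prg4 on plates 3 and 4, only 2 held no Ibsp, so the size of that Prg4 value depends on the added 1 CPM.

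Fibrous tissue genes were few: of 19, 9 could be called, with Col6a3 higher and Col5a2, Dcn and Dpt lower. Dcn, the decorin gene, stood at 664 and 271.3 CPM against 3462 and 1862 CPM, and Dpt, the dermatopontin gene, at 10.7 and 1.36 CPM against 240.9 and 64.9 CPM. Tnmd and Scx, markers of tendon, were read in 1 cell or none of each arm. Of 19 immediate early and heat shock genes that could be called, Hspa1b was the 1 higher gene and none was lower. Their median log2 fold was -0.08, and reads of Hspa1b and its near copy Hspa1a cannot be told apart. Of 8 growth factor genes, Tgfbr2, Chrdl1 and Cyr61 were higher and Frzb lower; Cyr61, a matricellular protein, stood at 7299 and 6265 CPM against 2750.2 and 2251 CPM. Among 5 proteases and inhibitors, Mmp14 was higher and Timp3 lower. Cd200, a gene used to sort skeletal stem cells, was lower at -1.26 with reads in 19 and 14 cells. Marrow stroma had 1 gene that could be called, Foxc1, with no call, and the cell cycle, blood, endothelial and mural lists had none; in the cell cycle list a read was found in 24 of 64 and 11 of 34 cells.

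The genes with the largest differences by the naming rule were mostly found in a minority of cells. Among the 10 highest besides Matn3 were C1qtnf3, a secreted C1q and TNF related protein also called cartducin, at 472 and 312 CPM against 0 reads, and R3hdml at 340.4 and 317 CPM against 0 reads, each in 19 of 64 positive cells and 0 of 34 0-read cells, which allows up to 8.82% of such cells. Lgmn, a lysosomal protease, was read in 17 and 0 cells, Loxl2, a collagen crosslinking enzyme, in 28 and 1, and Arsi, an arylsulfatase, in 18 and 1. Gga2, Nsun2, Cct5 and Supt5, genes of general cell functions, were read in 17 to 25 and 1 to 4 cells. Among the 10 lowest beside the surface genes were Rbp4, a retinol carrier, with reads in 7 and 14 cells, Id4, an inhibitor of helix-loop-helix factors, in 7 and 11, and Rbms3, Sugt1 and Mfap1b in 7 and 9, 11 and 9, and 15 and 9. Mfap1b has a near-identical copy, Mfap1a, so its reads are uncertain.

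In newborn cells, which the rule did not use, the same split gave 27 Matn3-positive and 15 0-read cells (35.7% without Matn3, 21.6% to 51.97%). Of 3725 genes that could be called on that 1 plate, 672 were higher (18%) and 792 lower (21.3%), with a median of -0.06. Prg4 was read in 8 of 27 positive cells (29.6%, 13.8% to 50.2%) and 14 of 15 0-read cells (93.3%, 68.1% to 99.8%), and stood at 182.9 against 1595 CPM. Cytl1 stood at 381 against 2849 CPM, Gas1 at 172.6 against 1606, Vit at 0 against 429.7, and Cilp at 0 against 64.2, the last in too few cells for a call. The collagens stood closer than at 2 months: Col2a1 was at 104032 against 79391 CPM (log2 difference 0.39), Col9a1 differed by 0.92 and Col11a2 by 0.04, and none of the 6 chains was called. Ucma, at 2322 against 613 CPM, and Papss2, at 431 against 36.9, were called higher again. Whether the newborn and 2-month differences differ was not tested, since each age is 1 sample and age cannot be told apart from plate and batch.

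The cartilage list at postnatal day 3 had 10 of 23 genes higher and 1 lower, at a median of 0.71, and the joint surface list 1 of 14 higher and 8 lower, at -1.03; both medians were the same with genes at 0 in an arm put at the level of 3 reads. Of 418 genes called higher at 2 months and tested in newborn cells, 75 were called higher there (17.9%, beside 15.2% of all genes tested at both ages) and 62 lower. Of 200 called lower, 55 were called lower there (27.5%, beside 14.8%) and 31 higher. Thbs4 was at 26.5 CPM in newborn positive cells and at 0 in 0-read cells. All of it came from 1 cell at 399.9 CPM, so it gives no direction to set beside 2 months. Sox6 stood at 70.1 CPM in newborn positive cells against 169.1 CPM in 0-read cells, opposite to 2 months.

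Usable 2-month cells without any Cnmd read were outside the choice, although 22 of these 42 held Col2a1 reads and 24 Sox9 reads. Of the 42, 1 held a Matn3 read (2.38%, 0.06% to 12.6%) and 15 a Prg4 read (35.7%, 21.6% to 51.97%). Their level as the mean of plates 3 and 4 was 8297 CPM of Prg4, 20690.4 CPM of Cytl1 and 4405 CPM of Cilp. For Cytl1 this mean was below, and for Cilp above, the 0-read cells of both plates. Prg4 differed by plate: its median per cell was 1048 CPM against 171.2 in 0-read cells on plate 3, and 0 against 18.5 on plate 4. Their mean level of Col2a1 was 8975 CPM and of Col9a1 331 CPM, below both arms on each plate.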

How the data were processed

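The members, gene lists and comparisons were chosen with earlier results of these data known. The deposited table holds expected counts per gene, which need not be whole and which the authors made from single-cell SmartSeq2 reads. Per the submitters' processing notes, bcl2fastq 2.18, STAR 2.4 and RSEM 1.2.21 were used with build GRCm38.p6; the annotation is not given in the sources used here. Each column was matched to a title through its plate, well, age and index pair; 1 column had no match and stayed out. Plate 4 columns carry another prefix than their sample titles, and the join did not use it. Values were rounded to whole numbers (14.8% of those above 0 were not whole), 92 ERCC spike-in rows were left out of totals and 55604 gene rows were kept.

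A cell was usable with at least 1000 genes, 50000 reads and under 20% mitochondrially encoded reads. CPM is per 1000000 gene reads of the cell or of the summed cells. Doublets were not called and cells were not clustered. Plates with at least 5 cells in both arms entered the comparison. Depth ran from 67638 to 2208448 reads per cell on plates 3 and 4, so 3 reads were 1.36 to 44.4 CPM. Shares carry exact (Clopper-Pearson) 95% intervals. Genes named besides the lists were, in each direction, the 10 with the largest log2 fold among called genes with at least 50 CPM in the higher arm. On simulated data the rule recovered genes with a large set change in either direction and also called a minority of unchanged genes, so a call is no test. The set change was larger than the 2-fold limit and was given only to genes above the 10 CPM limit. Recovery of genes near these limits was not tested. The simulation gave every gene the same kind of spread between cells. Genes read in a minority of cells at a high level, like C1qtnf3 here, were not modelled. How often unchanged genes of that kind would be called was not tested. Python 3.11.15 with numpy 2.4.6, pandas 2.3.3, scipy 1.17.1 and matplotlib 3.10.9 was used. TMM factors came from edgeR 4.0.16 under R 4.3.3.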

Additional observations from a re-analysis of the deposited data

How the results depend on the processing

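The count of genes higher in Matn3-positive cells (523) was 336 with each cell thinned to 50000 reads and 3399 with no filter on low values, and ran from 726 to 847 with plate 3 or 4 left out; plate 1 had no 0-read cell and entered no plate mean, so leaving it out changes no fold by construction, and with 1 plate left no second plate has to go the same way. The count of lower genes, 10.4% of those that could be called, was 1386 with no filter and 407 in cells of 1300 to 2300 genes, and ran from 430 to 646 with plate 4 or 3 left out. The cartilage matrix median log2 fold (0.90) was 1.01 with TMM factors, 0.75 with the mean of each cell's CPM, 1.01 with cells of all plates pooled, 0.98 with cells of at least 500 genes and 10000 reads, 0.97 without cells holding Ibsp, 1.09 in cells of 1300 to 2300 genes and 0.99 without cells of both arms holding Prg4, and ran from 1.05 to 1.13 with a plate left out. The joint surface median (-2.01) was -0.51 without cells of both arms holding Prg4 and -0.41 where they left the 0-read arm alone, and -1.88 and -1.46 with plate 4 or 3 left out. The Prg4 log2 difference (-5.14) was -12.1 without cells holding Ibsp and -11.0 in cells of 1300 to 2300 genes, and ran from -6.80 to -4.51 with a plate left out. The choices on Ibsp and on the range of genes each removed the 2 positive cells with at least 1000 CPM of Prg4, so the sizes -12.1 and -11.0 depend on the added 1 CPM. The share of Cnmd-positive cells without Matn3 (32.1%) was 13.2% in cells of at least 2000 genes and 200000 reads, where no plate had 5 cells in each arm and no fold could be had. Against 0-read cells without Prg4, directions turned for Cytl1 (4.58), Cilp (3.04), Frzb (0.84), Dpt (0.21), Gas1 (5.25), Sod3 (0.26), Cd200 (0.10), Smoc2 (0.46) and Npr2 (0.32), without Prg4-holding cells of both arms for Cytl1 (2.81), Cilp (3.00), Frzb (0.82), Smoc2 (0.62), Npr2 (0.51) and Mmp14 (-0.029), and without cells holding Ibsp for Alpl (1.08), with Ibsp itself at 0 by construction (0.00). The choices on Prg4, Ibsp and the range of genes were made after seeing the data, and the causes of these moves were not tested. The log2 difference kept its direction under every alternative that gave one for Col2a1 (1.99 to 2.80), Col9a1 (1.68 to 2.86), Col9a2 (1.62 to 2.66) and Col9a3 (2.11 to 2.80). With TMM factors 70.96% of calls were higher, against 66.2%. No paired analysis was possible because replicate numbers only name wells and no test was made; the arms themselves were compared within each plate. Limits are the depth per cell and 34 cells in the smaller arm.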
